A study of Mus musculus with 6 samples.

Results

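The Hoxa genes Hoxa5, Hoxa7, Hoxa9 and Hoxa10, their cofactor Meis1, and 4 further regulators of early blood cells, Hlf, Hhex, Erg and Hmga2, were followed on every array probe that carries one of these names. This gave 14 probes for 9 genes, of 41174 probes and 27729 genes or unnamed sequences on the array. RNA came from mouse pre-pro-B cells that lacked Ebf1, the transcription factor needed to enter the B lineage. One group had received a pMYs retrovirus that encodes Ebf1 (Ebf1beta in the sample titles) and, behind an internal ribosome entry site, EGFP (Ebf1 virus, n = 3 arrays). The other had received the pMYs retrovirus that encodes EGFP alone (control virus, n = 3 arrays). Both groups had the Ebf1 -/- genotype, were cultured over an OP9 stromal layer in medium with the cytokines IL-7, SCF and Flt3 ligand, and were sorted for EGFP 24 h after infection. The comparison therefore addresses which of these progenitor genes had changed 24 h after Ebf1 was supplied by virus to Ebf1 -/- cells. The labels do not say whether the replicates came from separate cultures or animals, so the p-values measure the spread between these arrays, which may be technical. Age and sex of the animals are not given in the labels.

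Hox proteins are homeodomain transcription factors, and in mammals the genes of the Hoxa cluster lie side by side on 1 chromosome. In blood stem and progenitor cells Hoxa9 and its neighbours are active, Meis1 binds DNA together with Hox and Pbx proteins, and levels of these genes are known to fall as cells mature. Sustained Hoxa9 and Meis1 activity drives leukaemia in mice. Hmga2 is a chromatin protein that bends AT-rich DNA and is known for high levels in fetal blood stem cells, where the RNA-binding protein Lin28b protects it from the let-7 microRNAs. Hlf, Hhex and Erg are transcription factors of the PAR bZIP, homeodomain and ETS families that act in stem cells or early lymphoid progenitors.

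Of the 14 probes, 11 could be tested. Among these, 2 Hmga2 probes and the Hoxa7 probe were lower in Ebf1-virus cells (27.3%), and none was higher. Over all 20448 tested probes, 10.2% were lower and 11.5% higher. Hmga2 fell about 4-fold on both probes (4.04-fold and 3.99-fold) and Hoxa7 fell 1.52-fold. The single probes of Hoxa5, Hoxa9 and Hoxa10 had lower means in Ebf1-virus cells without passing the test. Both Meis1 probes had higher means in Ebf1-virus cells, and also did not pass. The only Hlf probe was above background nowhere.

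The sequences that identify the key readings are given first. The promoters of the genes that passed the test, Hmga2 and Hoxa7, are shown because the virus supplies a DNA-binding factor; each runs over 250 bases before and 50 after the start site and comes from RefSeq on GRCm38.p6, on the minus strand. Capitals mark a match to CCCNNGGG, the core of the palindrome that EBF proteins recognise.
Hmga2 promoter, chr10:120476420-120476719: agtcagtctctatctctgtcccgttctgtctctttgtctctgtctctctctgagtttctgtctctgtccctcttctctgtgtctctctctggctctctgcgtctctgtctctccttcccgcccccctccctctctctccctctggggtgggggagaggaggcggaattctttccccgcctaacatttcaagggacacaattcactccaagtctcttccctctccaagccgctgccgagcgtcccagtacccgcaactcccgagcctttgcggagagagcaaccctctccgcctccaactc
Hoxa7 promoter, chr6:52218524-52218823: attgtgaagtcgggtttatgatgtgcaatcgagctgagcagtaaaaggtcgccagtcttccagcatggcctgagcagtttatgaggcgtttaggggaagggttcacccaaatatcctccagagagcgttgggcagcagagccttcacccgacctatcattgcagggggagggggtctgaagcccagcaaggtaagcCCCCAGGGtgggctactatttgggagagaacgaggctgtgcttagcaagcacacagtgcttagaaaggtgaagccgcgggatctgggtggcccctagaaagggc

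The table of promoters held 12 entries for all 9 genes, and 6 motifs were searched on both strands. The core CCCNNGGG lay in 3 of the 12, those of Hoxa7 (first base 54 bases before the start site), Hlf (87 bases before) and Erg (1 of 3 promoters, 116 bases before). The same letters lay in 13.7% of all 32851 promoters of this length. The longer form CCCNNGGGA (6.56% of all promoters) and the full palindrome, which adds a T before the core and an A after it (0.904%), both contain that core and had no match in the 12. Neither had TGATTNAT (3.22%) or TGATNNAT (8.85%), letters of joint Hox and Pbx sites of which the second contains the first. TGACAG, the site bound by Meis proteins, lay in 19.2% of all promoters and in 1 of the 12, an Erg promoter. The motifs and the promoters shown were chosen after the expression values had been seen.

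The probes that read the coding sequences of Meis1 and Hhex are shown because each is the stretch of transcript behind a value given further on; positions are those of mm9 in the array files. The Hhex probe lies over the homeobox, the part that encodes the DNA-binding domain.
Meis1 probe at transcript position 1016, chr11:18911247-18911306, minus strand: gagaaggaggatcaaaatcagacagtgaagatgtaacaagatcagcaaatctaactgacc
Hhex probe at transcript position 435, chr19:37511721-37511780, plus strand: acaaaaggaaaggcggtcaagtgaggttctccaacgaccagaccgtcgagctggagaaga

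Signals are given as relative signals, the log2 of the processed signal minus the log2 of the array's 75th percentile, so 0 is the 75th percentile of that array. That percentile was 316 to 364 on Ebf1-virus arrays and 240 to 366 on control-virus arrays, and between 50.5% and 60.1% of spots were well above background on Ebf1-virus arrays, against 46.6% to 50.5% on control-virus arrays. Ebf1 itself does not check the labels, because it is not known here whether its probes lie in the part carried by the virus: 1 probe had a log2 change of -0.15 ± 0.21 (limma SE; adjusted p = 0.646) and the other was at background on every array. Of 12 markers of pre-pro-B cells and lymphoid progenitors all 12 were measured. The arrays lay on 3 slides, and only 1 slide held both groups while the others held 1 group each, so changes within that slide (Ebf1-virus replicate 1 minus control-virus replicate 2) are given beside the fitted ones.

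Of the 14 probes, 11 were well above background on all 6 arrays and were tested. A total of 3 of these 11 were lower (27.3%) and 0 were higher at a limma adjusted p under 0.05. Over all 20448 tested probes, 10.2% were lower and 11.5% higher, or 21.7% called in all. With median scaling of the arrays the split over all probes was 1256 higher and 2642 lower, against 2349 higher and 2085 lower with the 75th percentile, and the members stayed at 0 higher and 3 lower. At an unadjusted p under 0.05, 6 of the 11 passed (54.5%), against 36% of all tested probes. The arrays of the 2 groups did not overlap for 6 of the 11 (54.5%), against 42.6% of all tested probes. The median log2 change (Ebf1 virus minus control virus) was -0.38 over the 11, beside -0.06 over all tested probes. Since 2 of the 11 probes read the same gene Hmga2, the 3 lower probes stand for 2 genes. RNA from whole sorted populations was measured, so fewer cells of a type and less RNA per cell cannot be told apart.

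**Figure D1:**
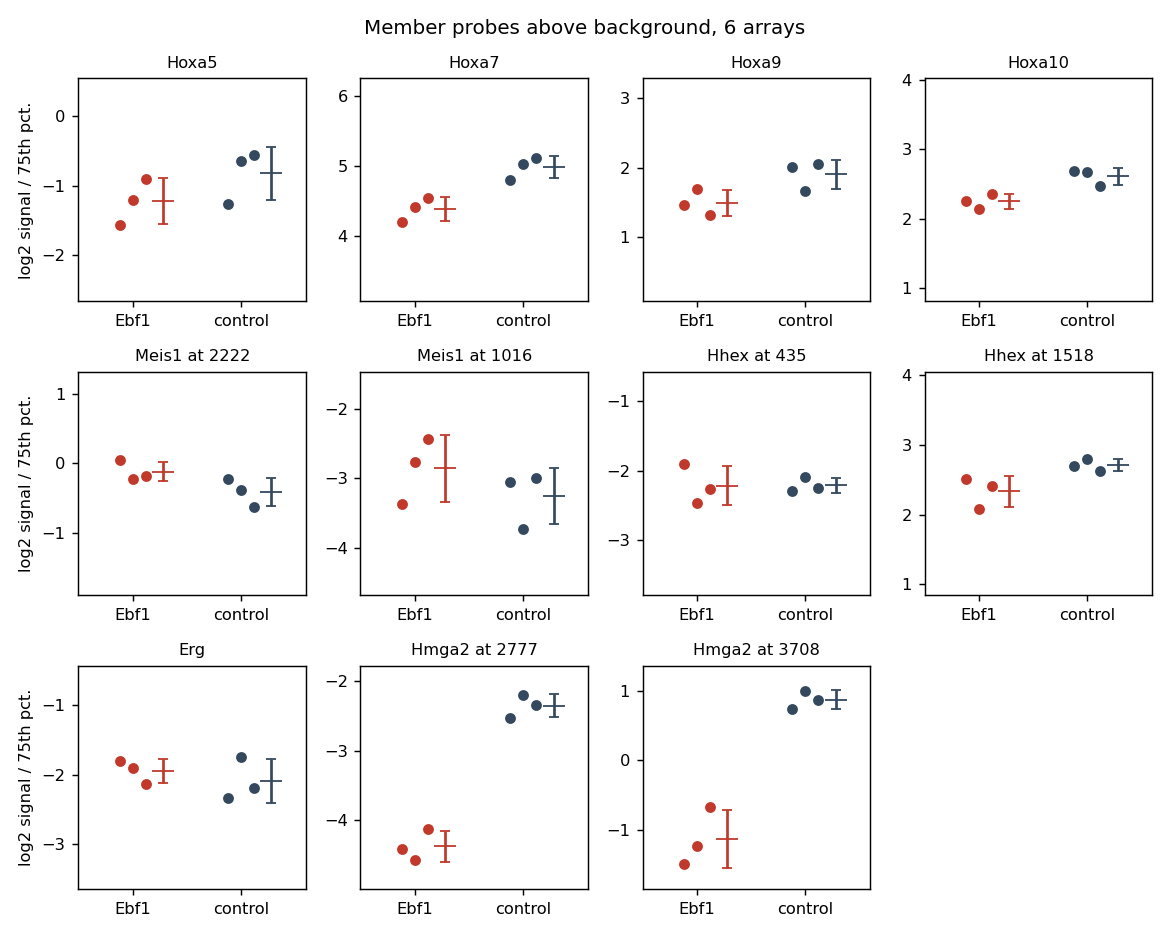
Relative signal (log2 of signal over the array's 75th percentile, y axis) of the 11 tested probes on each of the 6 arrays, with the mean and SD of the 3 Ebf1-virus arrays (red, left) and the 3 control-virus arrays (dark blue, right). The y axes differ in position, so levels are not to be compared between panels. The 2 Hmga2 panels, Hoxa7, Hoxa10 and the Hhex probe at 1518 show the groups apart, with Ebf1-virus arrays lower. The Meis1 probe at 2222 shows them apart with Ebf1-virus arrays higher.

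Hmga2 was the member with the largest fitted change in size. The probe at transcript position 3708 (chromosome 10, 119798739 to 119798798, mm9) had processed signals of 129, 148 and 199 on Ebf1-virus arrays, against 607, 480 and 477 on control-virus arrays. Every Ebf1-virus array was below every control-virus array. Its relative signal averaged -1.13 ± 0.42 in Ebf1-virus cells and 0.87 ± 0.14 in control-virus cells (SD, n = 3 each), a log2 change of -2.00 ± 0.22 (limma SE; adjusted p = 0.000677). The probe at position 2777 (119799670 to 119799729), which lies 871 bases from the first on the chromosome, gave processed signals of 17.2, 14.6 and 18.1 on Ebf1-virus arrays, against 63.5, 52.2 and 51.6 on control-virus arrays. These are dim signals, but all 6 were well above background and the groups were again apart. The relative signal averaged -4.37 ± 0.22 in Ebf1-virus cells and -2.35 ± 0.16 in control-virus cells (SD, n = 3 each), a log2 change of -2.01 ± 0.17 (SE, adjusted p = 0.000159).

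Both Hmga2 probes gave nearly the same change, with a difference between them of 0.02 on the log2 scale. They stood at rank 151 and rank 153 from the most negative of 20448 tested probes, inside the lowest 0.748% of changes. Within the slide that held both groups, the log2 change was -2.21 for the probe at 2777 and -2.50 for the probe at 3708. With normexp background correction, which adds an offset of 50 to every signal, the change of the probe at 2777 was -0.66 (adjusted p = 0.0154), while the probe at 3708 was at -1.54 (adjusted p = 3.32e-05). The remaining Hmga2 probe, designed on a cDNA clone sequence (chromosome 10, 119811916 to 119811975), stayed at background on all 6 arrays, with processed signals of 1.92 to 2.69 on Ebf1-virus arrays and 2.11 to 2.82 on control-virus arrays, and was not tested.

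**Figure D2:**
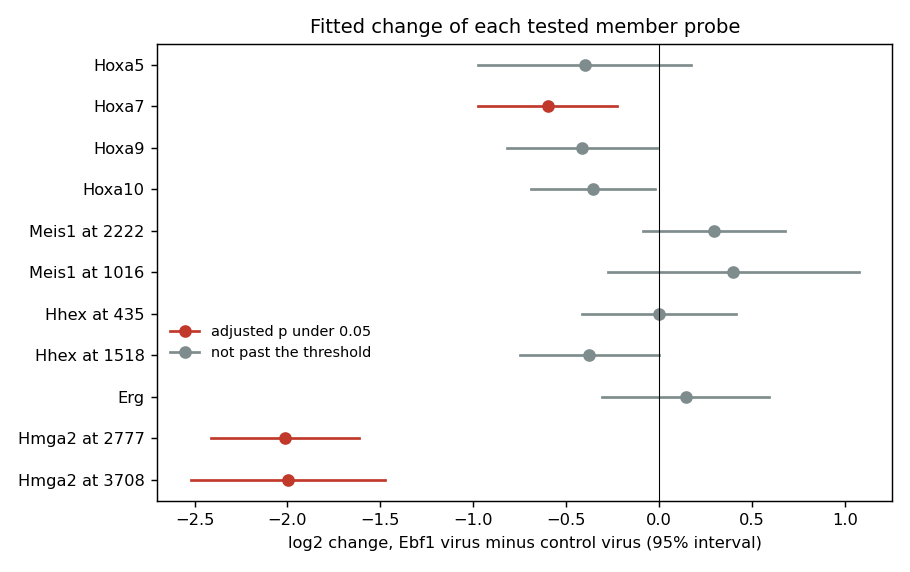
Fitted log2 change (Ebf1 virus minus control virus, x axis) of each tested probe with its 95% interval from limma; red marks an adjusted p under 0.05 and grey the rest. Both Hmga2 intervals end at -1.48 or lower, the Hoxa7 interval runs from -0.97 to -0.23, and the Meis1, Erg and Hoxa5 intervals span 0.

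Hoxa7 was the Hoxa member that passed the test. Its probe (chromosome 6, 52165626 to 52165685) had relative signals of 4.19, 4.42 and 4.54 on Ebf1-virus arrays, against 4.80, 5.03 and 5.12 on control-virus arrays, so the groups did not overlap. In processed signal this was 6665, 7386 and 7354 on Ebf1-virus arrays, against 10211, 7829 and 9059 on control-virus arrays, so Hoxa7 transcript was still far above background after infection with the Ebf1 virus. The log2 change was -0.60 ± 0.16 (SE, limma adjusted p = 0.0346) and within the shared slide -0.83. The call was lost in 8 of 17 alternative settings, among them quantile normalisation (-0.46, adjusted p = 0.0561), slide as a fixed block (-0.83, adjusted p = 0.116), and leaving out control-virus replicate 2 (adjusted p = 0.115), control-virus replicate 3 (adjusted p = 0.121), Ebf1-virus replicate 1 (adjusted p = 0.0736) or Ebf1-virus replicate 2 (adjusted p = 0.0775). Its change was negative in all 17, between -0.91 and -0.46.

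Hoxa9, the Hox gene best known for its part in leukaemia, had relative signals of 1.46, 1.69 and 1.32 on Ebf1-virus arrays, against 2.01, 1.66 and 2.04 on control-virus arrays. The highest Ebf1-virus array lay just above the lowest control-virus array, so the groups overlapped. The log2 change of -0.42 ± 0.17 did not pass (SE, limma adjusted p = 0.128), its 95% interval ran from -0.82 to -0.01, and within the shared slide it was -0.20.

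Hoxa10, the next gene in the cluster, had relative signals of 2.26, 2.14 and 2.35 on Ebf1-virus arrays, against 2.69, 2.68 and 2.47 on control-virus arrays. Every Ebf1-virus array was below every control-virus array, but the log2 change of -0.36 ± 0.14 (chromosome 6, 52181656 to 52181715) did not pass after adjustment (SE, limma adjusted p = 0.117). Its interval ran from -0.69 to -0.02, and the shared slide gave -0.42. Hoxa5, which in humans and mice acts in blood and lung development, had relative signals of -1.56, -1.21 and -0.90 on Ebf1-virus arrays, against -1.26, -0.65 and -0.56 on control-virus arrays. The groups overlapped, and the arrays within each group were spread more widely than for the other Hoxa members. The log2 change of -0.40 ± 0.25 (chromosome 6, 52152049 to 52152108) did not pass (SE, limma adjusted p = 0.28), its interval ran from -0.97 to 0.17, and within the shared slide it was -0.91.

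The rest of the Hoxa cluster was read in the order of the genes. The tested ones were Hoxa2, Hoxa3, Hoxa5, Hoxa7, Hoxa9, Hoxa10 and Hoxa11. The fitted change was above 0 for Hoxa2 (0.37 ± 0.27, adjusted p = 0.363) and Hoxa3 (0.22 ± 0.21, adjusted p = 0.479), and neither passed. It was below 0 for the 5 genes from Hoxa5 to Hoxa11. Relative to the median change of all tested probes, Hoxa2 was at 0.43, Hoxa3 at 0.28 and Hoxa11 at -0.59 with either scaling.

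Hoxa11 was the other Hoxa gene that fell. Its relative signals were 2.49, 2.31 and 1.99 on Ebf1-virus arrays, against 2.64, 3.05 and 3.05 on control-virus arrays, without overlap. The log2 change was -0.65 ± 0.19 (SE, limma adjusted p = 0.0492), just inside the threshold, and the call was lost in 8 of 16 alternatives, for example with quantile normalisation (adjusted p = 0.078) and without Ebf1-virus replicate 2 (adjusted p = 0.098), Ebf1-virus replicate 3 (adjusted p = 0.126), control-virus replicate 2 (adjusted p = 0.152) or control-virus replicate 3 (adjusted p = 0.151). Hoxa4 was at background on every array at its brightest probe, and Hoxa6 and Hoxa13 were above it on too few arrays to be tested. No test was made of whether one end of the cluster changed differently from the other.

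**Figure D3:**
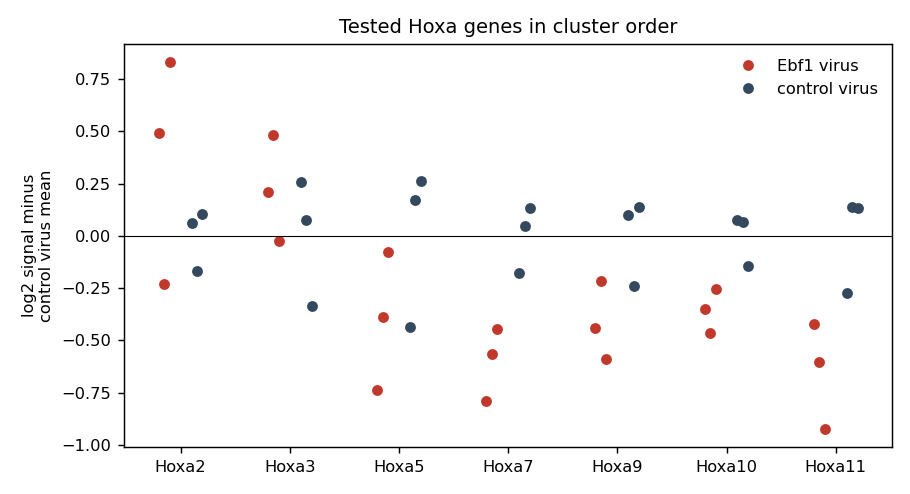
Relative signal of each array minus the control-virus mean of the same gene (log2, y axis) for the 7 tested Hoxa genes in cluster order (x axis), with Ebf1-virus arrays in red, on the left, and control-virus arrays in dark blue. Hoxa7, Hoxa10 and Hoxa11 show the groups apart, while Hoxa2, Hoxa3, Hoxa5 and Hoxa9 overlap.

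Meis1, a TALE homeodomain protein that stabilises Hox proteins on DNA, was read by 2 probes 129981 bases apart on chromosome 11. The probe at transcript position 2222 (18781206 to 18781265) had relative signals of 0.05, -0.22 and -0.18 on Ebf1-virus arrays, against -0.23, -0.38 and -0.63 on control-virus arrays. The groups lay close together without overlapping. The log2 change of 0.30 ± 0.16 did not pass (SE, limma adjusted p = 0.233).

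The Meis1 probe at position 1016, whose sequence is printed above, had relative signals of -3.37, -2.77 and -2.43 on Ebf1-virus arrays, against -3.04, -3.72 and -3.00 on control-virus arrays. The groups overlapped, and the log2 change of 0.40 ± 0.29 did not pass (SE, limma adjusted p = 0.36). The 95% intervals ran from -0.09 to 0.68 for the probe at 2222 and from -0.28 to 1.08 for the one at 1016; both span 0. Within the shared slide the changes were 0.43 and 0.35. With median scaling the probe at 2222 was at -0.01 and the other at 0.09, and relative to the median change of all tested probes they were at 0.36 and 0.46 with either scaling.

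Hhex, a homeodomain factor that early lymphoid and stem cells use, gave different readings on its 2 probes. The probe at transcript position 435, printed above, had relative signals of -1.91, -2.46 and -2.27 on Ebf1-virus arrays, against -2.29, -2.10 and -2.24 on control-virus arrays. These overlapped fully, with a log2 change of -0.00 ± 0.18 (limma SE; adjusted p = 0.993) and a 95% interval from -0.42 to 0.41. The probe at position 1518, 3188 bases further along chromosome 19 (37514969 to 37515028), had 2.51, 2.08 and 2.40 on Ebf1-virus arrays, against 2.70, 2.80 and 2.63 on control-virus arrays. Here every Ebf1-virus array was lower, but the log2 change of -0.38 ± 0.16 did not pass (SE, limma adjusted p = 0.138). With normexp background correction it passed (-0.52, adjusted p = 0.0441). The changes of the 2 probes differed by 0.37 on the log2 scale, which was not tested, and within the shared slide they were 0.19 at 435 and -0.29 at 1518.

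Erg, an ETS factor needed to maintain blood stem cells, was read by 2 probes, of which only 1 was above background (chromosome 16, 95581243 to 95581302). That probe was designed on a cDNA clone sequence, and the probe at background on a RefSeq transcript. The probe on the clone sequence had relative signals of -1.80, -1.91 and -2.13 on Ebf1-virus arrays, against -2.34, -1.74 and -2.19 on control-virus arrays. The groups overlapped, and the log2 change of 0.14 ± 0.19 (SE, limma adjusted p = 0.632) had a 95% interval from -0.31 to 0.59. It was at -0.17 with median scaling, but 0.20 relative to the median change of all tested probes with either scaling. Within the shared slide it was at -0.06. The other Erg probe had processed signals of 1.88 to 2.61 on Ebf1-virus arrays and 1.85 to 2.80 on control-virus arrays, none well above background. Hlf, a PAR bZIP factor that marks blood stem cells in mice, had processed signals of 1.87, 2.49 and 3.64 on Ebf1-virus arrays, against 3.06, 2.71 and 1.83 on control-virus arrays. None of these was well above background, so no change was tested.

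**Figure D4:**
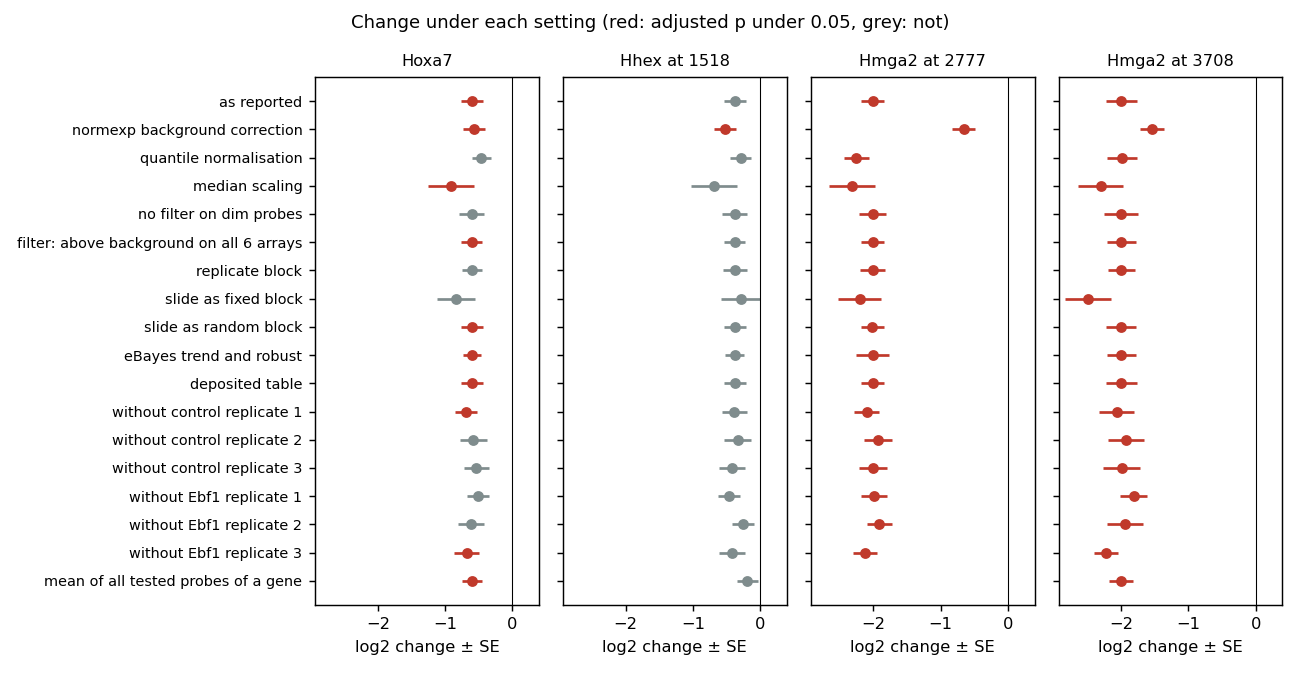
Log2 change with its SE (x axis) of Hoxa7, the Hhex probe at 1518 and both Hmga2 probes under the reported and each alternative processing (rows); red marks an adjusted p under 0.05 and grey the rest, and the bottom row holds means over the tested probes of a gene, drawn once per gene. The Hmga2 changes stay red in every row drawn, the Hoxa7 change is red in some rows and grey in 8, and the Hhex change is red with normexp correction alone.

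The 14 probes can be set beside genes that work with the members. Each gene was taken at its brightest tested probe, and over all 13616 genes 12.7% were higher and 11.1% lower, with a median log2 change of -0.06. Among the other Hox genes, 7 of 34 on the array were tested, and 17 were above background on no array at their brightest probe. None of the 7 was higher, and Hoxa11 was the 1 that was lower. The list's median was 0.22.

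Among the TALE partners of Hox proteins (Pbx, Meis, Pknox and Tgif genes), 8 of 10 were tested, 0 were higher and 2 were lower, with a median of 0.21. Tgif2, a repressor of this family, averaged a relative signal of 2.86 ± 0.26 in Ebf1-virus cells and 3.98 ± 0.04 in control-virus cells (SD, n = 3 each), a log2 change of -1.12 ± 0.17 (limma SE; adjusted p = 0.00296). Pknox1, which like Meis1 pairs with Pbx proteins, changed by -0.64 ± 0.18 (SE, adjusted p = 0.0389). That call was lost in 9 of 16 alternatives, and leaving out any array other than Ebf1-virus replicate 3 ended it (adjusted p between 0.065 and 0.123). Median scaling moves every probe by about the same amount; relative to the median change of all tested probes, the Hox and TALE lists both had a median of 0.28 with either scaling.

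All 23 chromatin regulators of Hoxa genes, such as the Kmt2a and Polycomb complexes, were tested; 0 were higher and 1 was lower, with a median of 0.01. By brightest probe the exception was Bmi1, a Polycomb protein of self-renewing cells, at -0.88 ± 0.19 (SE, limma adjusted p = 0.015). Its other probe was not called. The Bmi1 call was lost in 3 of 16 alternatives: with no filter (adjusted p = 0.0884), without control-virus replicate 2 (adjusted p = 0.0611) and without control-virus replicate 3 (adjusted p = 0.0517). Dot1l was not called at its brightest probe, but 1 of its 3 probes was lower. Kmt2a, the activator whose fusions switch on Hoxa9 in leukaemia, was at 0.30 ± 0.15 (adjusted p = 0.203), and Ezh2, the Polycomb methyltransferase, at 0.03 ± 0.15 (adjusted p = 0.906).

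Of 20 genes known to be bound or regulated by Hoxa9 and Meis1, 17 were tested, 2 were higher and 6 lower, with a median of -0.51. Kit, the receptor for stem cell factor, averaged -0.47 ± 0.19 in Ebf1-virus cells and 1.34 ± 0.22 in control-virus cells (relative signal ± SD, n = 3 each), a log2 change of -1.82 ± 0.18 (limma SE; adjusted p = 0.000318). Il7r, the interleukin 7 receptor, changed by -1.69 ± 0.15 (adjusted p = 0.000196). Bcl2, which protects from cell death, changed by -1.54 ± 0.18 (adjusted p = 0.00077), and Mef2c, a lymphoid transcription factor, by -1.61 ± 0.22 (adjusted p = 0.00205). The other lower genes were Runx1 and Cd34. Cdk6 and Id2 were not called at their brightest probe, but each had 1 other probe that was lower.

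The 2 higher genes of that list were Lmo2, an adaptor of stem cell transcription complexes, at 1.52 ± 0.21 (SE, limma adjusted p = 0.00209), and Msi2, an RNA-binding protein of stem cells, at 0.61 ± 0.17 (adjusted p = 0.0379). All 5 Msi2 probes were called higher, but the call of the brightest was lost in 9 of 16 alternatives, with median scaling at 0.30 (adjusted p = 0.543), and after removal of any 1 array other than Ebf1-virus replicate 1. Flt3, the receptor whose ligand was in the medium, was at 0.67 ± 0.26 and did not pass (adjusted p = 0.105).

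The 3 relatives of Hlf were all tested. Dbp, a PAR bZIP factor that follows the circadian clock, rose by 0.97 ± 0.14 (SE, limma adjusted p = 0.00251), a call lost with median scaling (0.66, adjusted p = 0.154) and with slide as a fixed block (adjusted p = 0.051). Tef at 0.34 ± 0.18 and Nfil3 at -0.18 ± 0.21 did not pass. In the Lin28, let-7 and Hmga2 axis, 7 of 11 genes on the array were tested, 1 was higher and 0 were lower, with a median of 0.13. Dicer1 was not called at its brightest probe (limma adjusted p = 0.0561), but 1 of its 2 probes was lower. Lin28a and Lin28b were at background on every array at their brightest probe. Hmga1, the closest relative of Hmga2, averaged 8.57 ± 0.14 in Ebf1-virus cells and 8.63 ± 0.27 in control-virus cells (relative signal ± SD, n = 3 each), a log2 change of -0.06 ± 0.18 (limma SE; adjusted p = 0.835) with a 95% interval from -0.48 to 0.36. The higher gene was Arid3a, a B lineage factor that let-7 represses, at 0.83 ± 0.18 (adjusted p = 0.0171). Its call was lost in 5 of 16 alternatives: with median scaling (0.53, adjusted p = 0.266), no filter (adjusted p = 0.0973), the replicate block (adjusted p = 0.0553), slide as a fixed block (adjusted p = 0.139) and without Ebf1-virus replicate 3 (adjusted p = 0.054).

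Of 13 stem cell factors that act with Erg, 11 were tested, 3 were higher and 5 lower, with a median of -0.32. Gfi1b, a repressor of blood progenitors, averaged 2.01 ± 0.14 in Ebf1-virus cells and 3.71 ± 0.06 in control-virus cells (relative signal ± SD, n = 3 each), a log2 change of -1.70 ± 0.14 (limma SE; adjusted p = 0.000147). Mycn changed by -1.68 ± 0.16 (adjusted p = 0.000254), Tal1 by -1.76 ± 0.16 (adjusted p = 0.000259) and Lyl1, a close relative of Tal1, by -0.98 ± 0.15 (adjusted p = 0.00319, and 0.0696 with slide as a fixed block). Runx1 was the fifth. Etv6 was not called at its brightest probe, but 1 of its 2 probes was lower. Gata2, well above background on all 3 Ebf1-virus arrays and on 0 control-virus arrays, was at least 2.63-fold higher (adjusted p = 0.000355). With normexp correction its log2 change was 0.38 (adjusted p = 0.144). Lmo2 and Msi2 were the other higher genes. Fli1, the nearest ETS relative of Erg, was at -0.21 ± 0.24 and did not pass (adjusted p = 0.551).

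**Figure D5:**
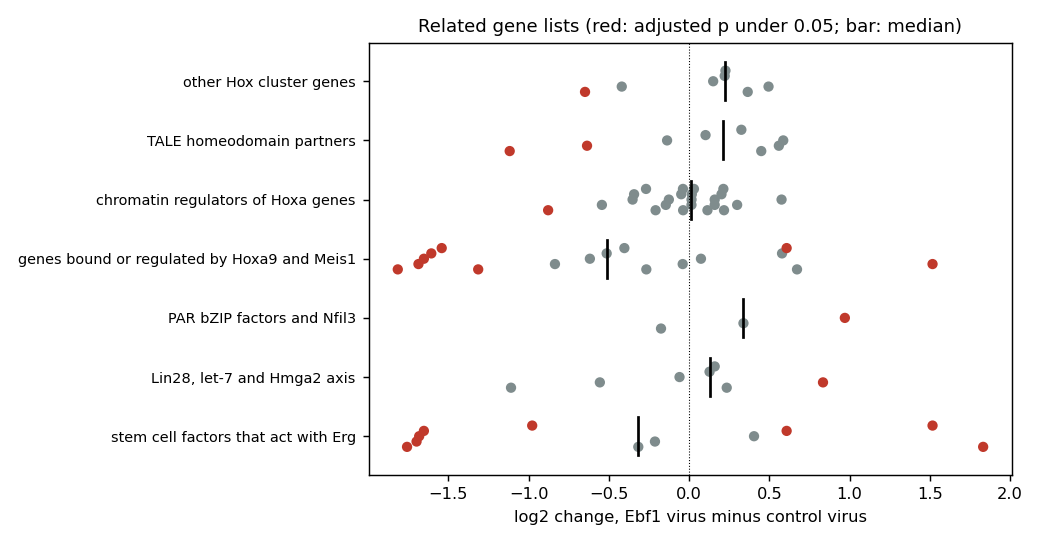
Log2 change (Ebf1 virus minus control virus, x axis) of each tested gene of the 7 related lists (rows), with red for an adjusted p under 0.05, grey for the rest and a black bar at each list's median. The list medians lie between -0.51 and 0.34.

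Summed markers of some other cells stood apart between the groups, while those of others overlapped. The part of such cells in the changes of Hmga2 and the Hoxa genes was not tested. Of 19 OP9 stromal markers, 13 were tested, 4 were higher and 0 lower, and their summed signal was 2932 to 3876 percent of the 75th percentile on Ebf1-virus arrays, against 1876 to 2610 on control-virus arrays. The count of higher OP9 markers was 0 without control-virus replicate 1, without control-virus replicate 3, with median scaling and with no filter on dim probes. It was 1 without Ebf1-virus replicate 3 and with slide as a fixed block, and 2 without Ebf1-virus replicate 1 or 2 and with the replicate block. The count was 3 with quantile normalisation, 5 with the filter on all 6 arrays, 6 with normexp correction and 7 with eBayes trend and robust options. Postn, Lum, Dcn and Kitl were at background on every array at their brightest probe. Myeloid markers (5 of 9 tested, 1 higher and 3 lower) summed to 662 to 696 percent on Ebf1-virus arrays, against 1259 to 1620 on control-virus arrays, with Csf3r above background on none. Csf1r, the 1 higher, was well above background on 2 control-virus arrays, so only the Ebf1-virus group let it be tested. The count of higher myeloid markers was 0 with normexp correction, the filter on all 6 arrays and slide as a fixed block. Erythroid and megakaryocyte markers (4 of 8 tested, 2 higher and 1 lower) summed to 1064 to 1302 percent on Ebf1-virus arrays, against 409 to 529 on control-virus arrays, with Gata1 and Pf4 above background on none. Gp9, a platelet glycoprotein, made up most of that sum, at 972 to 1217 percent in Ebf1-virus cells against 345 to 426 in control-virus cells. The other 3 markers summed to 85.3 to 91.1 percent on Ebf1-virus arrays, against 63.9 to 103.5 on control-virus arrays, so the groups overlapped. Klf1, 1 of the 2 higher, was well above background on 0 control-virus arrays, so only the Ebf1-virus group let it be tested. The count of higher erythroid and megakaryocyte markers was 1 with normexp correction, the filter on all 6 arrays and slide as a fixed block. The 1 lower call, Itga2b, was lost when any array other than Ebf1-virus replicate 3 was left out (adjusted p between 0.068 and 0.143), with normexp correction (adjusted p = 0.165) and with no filter (adjusted p = 0.185). T lineage markers (6 of 7 tested, 1 higher and 2 lower) summed to 1504 to 1734 percent on Ebf1-virus arrays, against 1711 to 2091 on control-virus arrays, so the groups overlapped. Of 9 endothelial markers 2 were tested, and 6 were above background on no array at their brightest probe. The 2 summed to 39.4 to 53.9 percent on Ebf1-virus arrays, against 37.8 to 43.4 on control-virus arrays, so the groups overlapped. Esam was the 1 higher, and only the Ebf1-virus group let it be tested, with 1 control-virus array well above background. The count higher was 0 with normexp correction, no filter, the filter on all 6 arrays and slide as a fixed block. It was also 0 without control-virus replicate 1 or control-virus replicate 2. The pre-pro-B markers (3 higher, 5 lower, a median log2 change of -0.34) summed to 25400 to 28686 percent on Ebf1-virus arrays, against 13182 to 15908 on control-virus arrays. Ly6d, a surface marker of B-lineage-biased lymphoid progenitors, made up most of the Ebf1-virus sum, at 16623 to 18639 percent in Ebf1-virus cells against 2300.1 to 3630.4 in control-virus cells. The other 11 markers summed to 8532 to 10047 percent on Ebf1-virus arrays, against 10882 to 12278 on control-virus arrays, the opposite order. Sums without Gp9 and without Ly6d were taken after the values had been seen.

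The genes whose profile over the 6 arrays lay nearest to a member's were found among 10795 candidates by the root mean square distance of mean-centred relative signals. This distance includes the difference between the groups, so it describes likeness in level over these arrays and nothing else. Hoxa7 was nearest to Fbxw4 (0.03) and Ash2l (0.03), a subunit of the Kmt2a complex. Hmga2 was nearest to Nkd1 (0.08) and Tmem158 (0.10) by its probe at 2777, and to Cacnb3 (0.10) and Klf5 (0.11) by its probe at 3708. The 2 Hmga2 probes were 0.17 from each other.

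Hoxa9 was nearest to Xrcc6 and Ddx49, Hoxa10 to Sdhaf3 and Topbp1, and Hoxa5 to Pigs and Rnf149, at distances of 0.03 to 0.07. Among the 4 Hoxa members the distances ran from 0.19 (Hoxa5 and Hoxa7) to 0.38 (Hoxa5 and Hoxa9). These cannot be set against the nearest distances, which are the 2 smallest among 10795 candidates for each probe. The Hhex probe at 1518 lay 0.10 from Hoxa10, and 0.20 from the other Hhex probe. The Meis1 probe at 2222 was nearest to Rbm22 and Mdm2, and the one at 1016 to Lockd and Morn2, with 0.45 between the probes. Erg was nearest to Trim16 and Vps9d1, and Hhex to Snx6 and Zfp236 by its probe at 435 and to Kpna1 and Prdx3 by its probe at 1518.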

How the data were processed

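Cy3-labelled RNA of 6 samples was read on Agilent 1-colour arrays. Per the file headers, the authors' spot intensities were extracted with Feature Extraction 10.5.1.1, which subtracted background within each array; no scaling between arrays is recorded. The deposited series table equalled these processed intensities within 0.1% at all 45018 features. Groups and replicate numbers come from the sample titles.

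The log2 processed intensity minus the array's 75th percentile was used. Spots flagged as outliers (65 to 116 an array) were left out, and spots of a probe averaged. A probe was tested when well above background on all 3 arrays of at least 1 group (20448 probes; 20726 were not tested, and 8 tested probes had a missing array value). The groups were compared with limma 3.58.1 (lmFit and eBayes, R 4.3.3, package data.table, version 1.17.8), as two-sided tests; p was adjusted by Benjamini-Hochberg over the tested probes and the threshold was 0.05; the fit was tested on simulated data. The number of arrays limits the precision. At least N-fold sets the brighter group's mean against the dimmer group's, each array of which was raised to its lowest signal well above background.

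Members, lists and motifs were chosen with earlier results of these data known. The rule for named genes takes all member probes, up to 4 called genes a direction from each list by smallest p, and the 2 nearest profiles per probe. Genes named outside it (Runx1, Cd34, Flt3, Cdk6, Id2, Kmt2a, Ezh2, Dot1l, Hmga1, Dicer1, Tef, Nfil3, Fli1, Etv6, Hoxa2, Hoxa3, and untested genes) were chosen after their values were seen. Symbols were updated through RefSeq accessions of GRCm38.p6 (25097 probes matched) and, after list results had been seen, through single synonyms (1640 probes); this changed no member probe. Of 174 list genes 171 were on the array. Alternatives were normexp (offset 50), quantile normalisation, median scaling, no filter, a filter on all 6 arrays, replicate number or slide as block, eBayes with trend and robust options, gene means, removal of each array in turn, and the deposited table.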

Additional observations from a re-analysis of the deposited data

How the results depend on the processing

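The count of members called higher was 0 under all 16 alternatives that give counts, and the count called lower was 2 to 4, with 4 under normexp correction and 2 under quantile normalisation, no filter, the replicate block and slide as a fixed block. Both Hmga2 calls held in every alternative run, and Hoxa7 lost its call in 8 of 17. Over all tested probes, the count higher was 2349, with 1256 under median scaling, 1341 with no filter and 1270 with slide as a fixed block; the count lower was 2085, with 655 with no filter, 1233 with the replicate block and 899 with slide as a fixed block. Leaving out 1 array gave 1622 to 2111 higher, 1009 to 1700 lower, and 2 to 3 members lower; the lower count was 1009 without control-virus replicate 2, 1020 without control-virus replicate 3 and 1363 without Ebf1-virus replicate 2. Correlations of deviations between arrays of the same number were -0.17, -0.25 and 0.10. Between arrays of different number they ran from -0.13 to 0.29, the highest for the 2 arrays that shared a slide. With 3 arrays a group these values cannot tell whether the replicates were prepared in pairs. With the replicate block Hoxa7 was at -0.60 (limma adjusted p = 0.0543). Values that changed sign were Hhex at 435, which was 0.0647 with normexp correction, 0.19 with slide as a fixed block, and -0.1545 to 0.1224 when 1 array was left out, above 0 without control-virus replicate 2, Ebf1-virus replicate 2 or Ebf1-virus replicate 3; Meis1 at 2222, which was -0.0135 with median scaling; and Erg, which was -0.17 with median scaling and -0.0629 with slide as a fixed block. Median scaling shifts all changes by about a constant (the median over all probes was -0.37 in place of -0.06). Its SE had a median of 0.34 and ran from 0.34 to 0.38, beside a median of 0.18 and a range of 0.13 to 1.63 as reported. Probes thus shared nearly 1 SE under median scaling, and its adjusted p-values do not reflect each probe's own spread. Calls moved with the SE as well as the shift. Relative to the median change over all probes, Meis1 at 2222 was at 0.36, Erg at 0.20 and Hoxa7 at -0.54 with both scalings. Causes of the other changes were not tested. The slide fit rests on 1 slide with 1 array of each group. The dim signals of Hlf, 1 Erg probe and 1 Hmga2 probe set no level there.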
